A study of Mus musculus with 8 samples.

Results

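The stretch of mouse chromosome 15 described here runs from 55 to 72 Mb, chr15:54999546-72000311 of the GRCm38 (mm10) build, and held 340 of the 53357 bins of 50 kb into which the contact matrices divide the genome. It was chosen from measured values. In the 2 libraries of the 33 h pre-S group, some of its bins had lost coverage, distant bins were in contact and neighbouring bins were out of contact, against the other 6 libraries. Every value that sets the pre-S libraries against those 6 comparison libraries is therefore a description. Where pairs of bins called in a contrast with the pre-S group are counted, the choice of the stretch had fixed that many would be called, and only the contrasts among the comparison groups serve as tests.

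In situ Hi-C, which counts ligated pairs of DNA fragments that lay close together in the nucleus, was performed on splenic B cells of mice aged 6 to 12 weeks, stimulated in culture with 25 µg/ml of lipopolysaccharide (LPS), a bacterial component that drives B cells into division. All groups held activated cells that had not yet divided, with 2 biological replicates a group. The mice were C57BL/6, and the paper's methods give males on a C57BL/6 Pep3b background. The groups were cells collected after 3 h, after 10 h, after 33 h with the first division imminent (33 h imminent division), and after 33 h but ahead of S phase (33 h pre-S). Only the last group was taken from C57BL/6 FUCCI mice, whose transgenic fluorescent reporters mark the phase of the cell cycle, and was sorted as G1 cells, while the other groups are labelled C57BL/6 and were not sorted by phase. Strain, gate and group therefore cannot be told apart, and whether the pre-S replicates came from related animals is not given in the sources used here. Contact counts hold no transcript levels, so the cell type rests on the labels.

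The libraries held 88703088 to 218945191 read pairs, the pre-S libraries 117386199 and 105015427. Within-chromosome contacts of autosomes made up 70.92% to 75.06% of pairs. The second imminent division library stood apart in its sex chromosomes, with 3.74% of read ends on X and 0.049% on Y against 2.39% to 2.84% and 0.0804% to 0.123% in the other 7 libraries, although the study's methods name male mice only. Among those 7, the pre-S libraries were the highest, with 2.84% and 2.8% on X and 0.117% and 0.123% on Y. The rest had 2.39% to 2.73% and 0.0804% to 0.092%. Chromosome 15 held 4.14% to 4.25% of read ends in all 8 libraries.

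Hi-C counts fall steeply with distance along a chromosome, so DNA that lies side by side is in contact far more often than DNA that lies megabases apart. Where the DNA of a cell is joined differently from the reference, contacts follow the order in the cell: ends that became neighbours gain contacts, ends that were parted lose them, and DNA that is absent has few contacts with any chromosome. The stretch surrounds Myc, the gene of a transcription factor that drives cell growth, and Pvt1, the noncoding RNA gene beside it, a neighbourhood known for rearrangements in tumours of the B lineage.

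The edges found here divided the stretch into 5 segments, named A to E in reference order, and 2 stretches of lost coverage. Segment A was chr15:54999546-56350561 (1.351 Mb, 7 protein-coding gene starts), the first lost stretch chr15:56350558-56500050 (149.5 kb, 0 starts) and segment B chr15:56500047-58149987 (1.65 Mb, 11 starts). Segment C was chr15:58149984-69550062 (11.4 Mb, 42 starts), and the second lost stretch was chr15:69550059-69849993 (299.9 kb, 0 starts). Segment D was chr15:69849990-70399925 (0.5499 Mb, 0 starts) and segment E chr15:70399922-72000311 (1.6 Mb, 1 start). Bins follow the cut sites of MboI, the enzyme used for the libraries, so neighbouring bins share the bases of a site. The reference sequence at the bin edges next to which the map changed is shown to place them in the genome. Each is 60 bases of the plus strand of GRCm38, with the MboI site in capitals. The joined ends in the cells lie somewhere within the bins at these edges, since contact counts resolve no single base.
Left edge of the first lost stretch, chr15:56350530-56350589: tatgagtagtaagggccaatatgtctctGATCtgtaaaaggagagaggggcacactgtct
Right edge of the first lost stretch, chr15:56500019-56500078: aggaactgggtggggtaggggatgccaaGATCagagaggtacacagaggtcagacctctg
Left edge of segment C, chr15:58149956-58150015: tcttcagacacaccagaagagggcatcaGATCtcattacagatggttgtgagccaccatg
Left edge of the second lost stretch, chr15:69550031-69550090: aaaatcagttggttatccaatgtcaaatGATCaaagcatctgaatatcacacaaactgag
Right edge of the second lost stretch, chr15:69849962-69850021: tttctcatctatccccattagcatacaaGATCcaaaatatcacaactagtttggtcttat
Left edge of segment E, chr15:70399894-70399953: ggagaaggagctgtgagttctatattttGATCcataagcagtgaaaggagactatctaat

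Coverage was measured as the copy ratio, the count of a bin with all other autosomes, scaled to a median of 1 in each library and divided by the mean of the comparison libraries (of the other 5 for a comparison library). Contacts with other chromosomes were used because they do not depend on the order of segments along chromosome 15. The second lost stretch was nearly empty in the pre-S libraries. Its copy ratio was 0.979 and 1.04 at 3 h, 1.01 and 1.02 at 10 h, 0.973 and 0.987 in the imminent division libraries, and 0.0709 and 0.0787 in pre-S cells. Both pre-S libraries were far below all 6 others, and they resembled each other (mean 0.0748 ± 0.00554, SD, n = 2). The 4 bins inside it, chr15:69601058-69799922, held 238 and 242 interchromosomal counts in the pre-S libraries and 5115 to 13453 in the others, copy ratios of 0.0357 and 0.0383. The loss began within the leftmost bin, at 0.268 and 0.298, and ended at its right edge, where the last lost bin stood at 0.0144 and 0.0214 and the first bin of segment D at 0.861 and 0.77.

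The first lost stretch was smaller and only its middle bin was nearly empty. Its copy ratio was 0.894 and 0.965 at 3 h, 0.963 and 0.958 at 10 h, 1.19 and 1.04 in the imminent division libraries, and 0.366 and 0.314 in pre-S cells (mean 0.34 ± 0.0368, SD, n = 2), with 1128 and 933 pre-S counts against 2249 to 6617. From left to right its 3 bins stood at 0.472, 0.0837 and 0.542 in the first pre-S library and at 0.395, 0.0715 and 0.475 in the second, so that both outer bins kept part of their coverage. Set against the neighbouring bins, the missing coverage amounted to 101 and 106 kb of DNA here and to 277 and 274 kb in the second lost stretch. The first bin of segment C, chr15:58149984-58200170, also had lost coverage, at 0.597 and 0.56, an equivalent of 14.2 and 16.7 kb.

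In all, 11 of the 340 bins were called lost (both pre-S libraries under 0.75 and below all others), 3.24% of the stretch, against 0.0275% of all 47326 autosomal bins kept. Only 2 lost bins lay elsewhere, on chromosomes 2 and 7. The other called bin, chr15:58299806-58350067, was just inside the threshold at 0.744 and 0.746, and the bin before it, chr15:58250005-58299809, was just outside at 0.767 and 0.743. Bins called gained were 6 (1.76%), fewer than the 10.8% of all autosomal bins. They were the first bin of segment B, at 1.32 and 1.3, and 5 bins in the left part of segment E, led by its first bin at 1.48 and 1.37 (0.899 to 1.1 in the others). No protein-coding gene started in a gained bin or in either lost stretch. Over whole segments the pre-S copy ratios were 0.976 and 0.953 in A, 1.05 and 1.01 in B, 0.947 and 0.924 in C, 1.04 and 0.97 in D, and 1.19 and 1.12 in E.

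**Figure D1:**
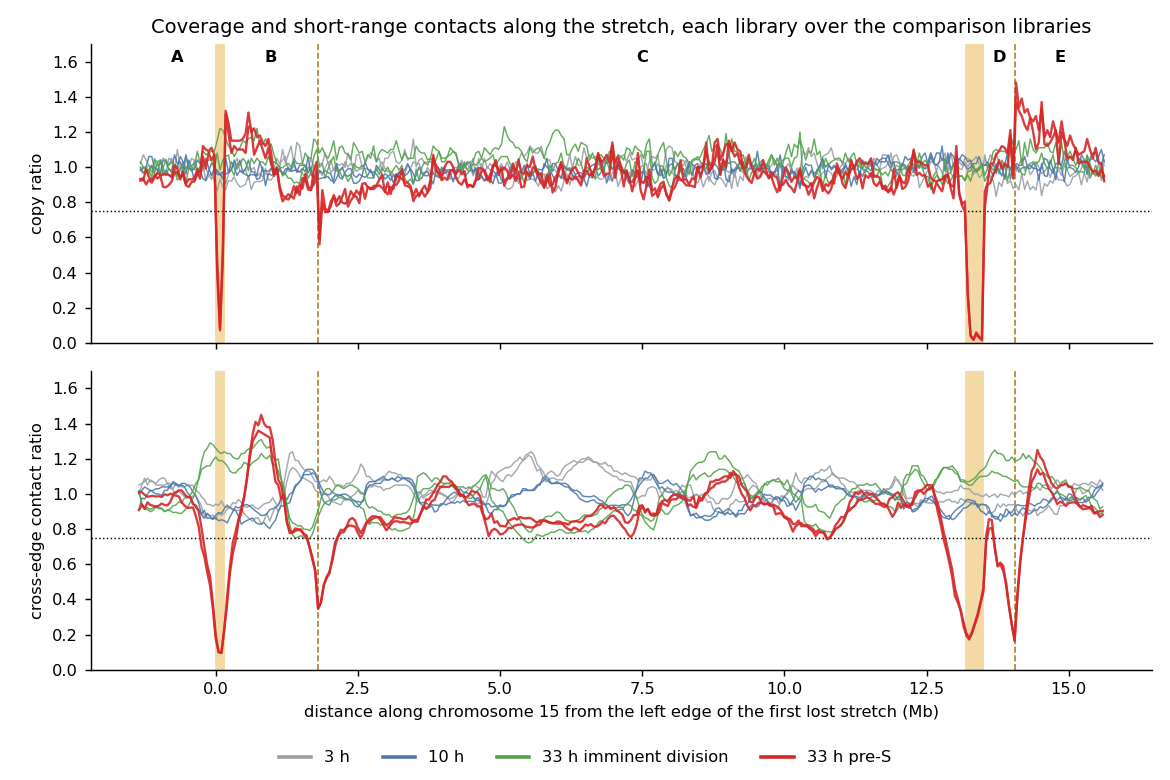
Copy ratio (upper panel) and cross-edge contact ratio (lower panel) of each library along the stretch, against distance in Mb from the left edge of the first lost stretch. Each line is 1 library, shaded bands are the lost stretches, dashed lines the left edges of C and E, and dotted lines the threshold of 0.75. The 2 pre-S lines drop to near 0 in the second lost stretch, and in the lower panel have 4 deep minima where the other 6 lines have none.

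Short-range contacts were counted across each bin edge, between the 500 kb before and the 500 kb after it, over the count expected from distance, and divided by the mean of the comparison libraries. Of 340 edges, 46 (13.5%) were called lost against 0.118% of all edges, and no other chromosome had more than 2. At the first lost stretch, the edge at 56450273 was crossed by 137 and 117 contacts in the pre-S libraries, against 842 and 1790 at 3 h, 1225 and 1517 at 10 h, and 3151 and 3599 in the imminent division libraries. The 2 pre-S libraries were the lowest, at ratios of 0.0963 and 0.0961, in a run of 11 called edges. At the second lost stretch, the edge at 69601058 was crossed by 594 and 484 contacts against 2117 to 7370 (0.18 and 0.172, 14 edges). At the left edge of segment E, 261 and 216 contacts crossed against 983 to 3527 (0.168 and 0.163, 10 edges). The least deep of these 4 minima was the left edge of segment C, with 923 and 793 contacts against 1908 to 5122 (0.347 and 0.349, 10 edges), where the other libraries stood at 0.867 to 1.08. A lone called edge at 67099896 stood at 0.741 and 0.747, just inside the threshold, and the imminent division libraries stood at 0.786 and 0.876 there, close above.

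New long-range contacts were bin pairs at least 2 Mb apart with 10 or more pre-S counts, whose observed over expected count (O/E, the count over the mean of autosomal bin pairs at that distance) was at least 3 times the comparison mean in each pre-S library and above all others. Of 6179 such pairs with a bin in the stretch, 1209 (19.6%) were called, against 2.37% of all autosomal pairs, and 955 of them lay wholly inside. With the first or the second pre-S library left out, so that the remaining library alone had to hold the 10 counts, 345 and 534 pairs were called. Chromosome 15 held 1474 called pairs and the other chromosomes 86 to 730 each. The called pairs touched each other: the 3 largest clusters, of 396, 99 and 87 pairs, were on chromosome 15, and the largest elsewhere held 3 pairs. By segments, called pairs made up 382 of the 1056 pairs of B with E (36.2%) and 104 of 297 of A with D (35%). They were 262 of 6150 of A with C, 97 of 6765 of B with C and 16 of 17766 within C (0.0901%).

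At the corner of the largest cluster, the last bin of B (58100087) and the last bin of D (70349875), which are more than 12 Mb apart in the reference, had 43 and 33 contacts in the pre-S libraries, 1 in the second imminent division library and 0 in the other 5. The bins around the edge of D and E show how sharp the change was. The last 5 bins of B had 1 and 2 contacts with the bin at 70199263, 86 and 80 with the last bin of D (70349875) and 256 and 232 with the first bin of E (70399922), while no comparison library had more than 3 with any of them. The last 5 bins of C ran the other way, with 185 and 142 contacts at the last bin of D but 7 and 4 at the first bin of E, where the comparison libraries had 28 to 103. The last bin of D was thus in contact with both ends. The bin before it had only 4 and 2 contacts with the last 5 bins of B, so the edge lies within the last bin of D.

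**Figure D2:**
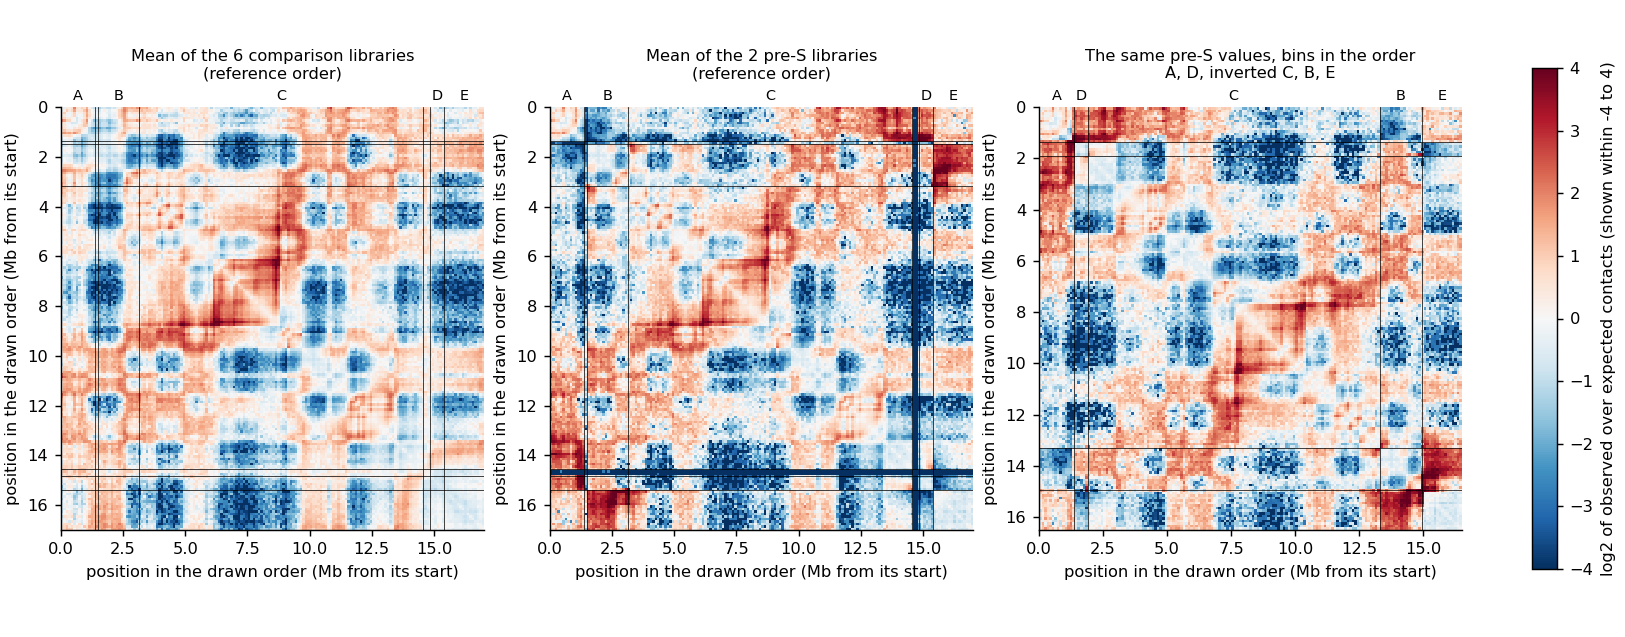
Contact maps of the stretch at 50 kb, coloured by log2 of observed over expected contacts, with the expected count taken from reference distance (shown between -4 and 4), as means of the 6 comparison libraries and of the 2 pre-S libraries in reference order, and of the pre-S libraries with bins redrawn in the order A, D, inverted C, B, E. Axes give position in the drawn order in Mb from its start, and thin lines mark segment edges. In reference order, blocks of B with E and of A with D and the right end of C are dark red in the pre-S map and not in the comparison map, and the redrawn map puts these blocks beside the diagonal.

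Contacts between the ends of segments were taken as a percent of the mean count of adjacent 250 kb squares, to show which ends were in close contact. Each end was 250 kb, as 5 bins, with bins called lost skipped. The left end of C therefore began at 58200167, without the first bin of C, and also left out the bin at 58299806. The right end of B and the left end of E, apart in the reference, had 2, 4, 4, 4, 4 and 9 contacts in the comparison libraries (0.211% to 0.398% of adjacent squares), and 558 and 506 in the pre-S libraries (52.3% and 55.8%), a mean O/E 173 times the comparison mean. The right end of A had 630 and 529 contacts with the left end of D (59.1% and 58.4%) against 27 to 69 (2.21% to 4.77%), 17 times the comparison O/E. The left end of B had 634 and 565 with the left end of C (59.4% and 62.4%) against 25 to 55 (2.17% to 3.81%), 18.2 times. The right ends of C and D, only 850 kb apart in the reference, had 69.9% and 66% against 23.6% to 30.3%, 2.43 times. In all 4 pairs of ends the pre-S libraries were above every comparison library.

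Ends that are neighbours in the reference were lower in the pre-S libraries in all 4 cases. The right end of A with the left end of B was at 4.88% and 4.41% (28.5% to 47.1% in the others), D right with E left at 11.7% and 9.82% (58.9% to 77%), B right with C left at 22.3% and 24.2% (80.2% to 90.9%) and C right with D left at 34.8% and 31.8% (57.3% to 69.8%). For the 4 pairs apart in the reference, the levels were 52.3% to 69.9%. Reference neighbours had a wide range in the comparison libraries, 28.5% to 90.9%. Its lower part came from A with B, which a lost stretch parts. C with D, also parted by one, was at 57.3% to 69.8%. B right with E left, at 52.3% and 55.8%, was below both pairs that no lost stretch parts, D with E and B with C. The ends of D were not alike: the right end of A reached 28% in both pre-S libraries with the right end of D, less than with its left end, and C right with E left was at 4.31% and 3.53% against 15.1% to 21.6%. Further pairs of ends were above every comparison library at lower levels. The right ends of A and C were at 25% and 23.5% (2.43% to 4.36% in the others), the left ends of B and E at 15.1% and 14.7% (3.09% to 5.33%) and the left ends of C and E at 14.7% and 14.6% (0.422% to 1.24%), the last of these 19.6 times the comparison O/E. The right ends of B and D were at 8.81% and 9.82% (0.149% to 0.475%), 28.7 times the comparison O/E. Both ratios were larger than those of 3 of the 4 pairs above. Of the 94 and 89 contacts between the right ends of B and D, however, 86 and 80 were with the last bin of D, within which the edge lies.

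**Figure D3:**
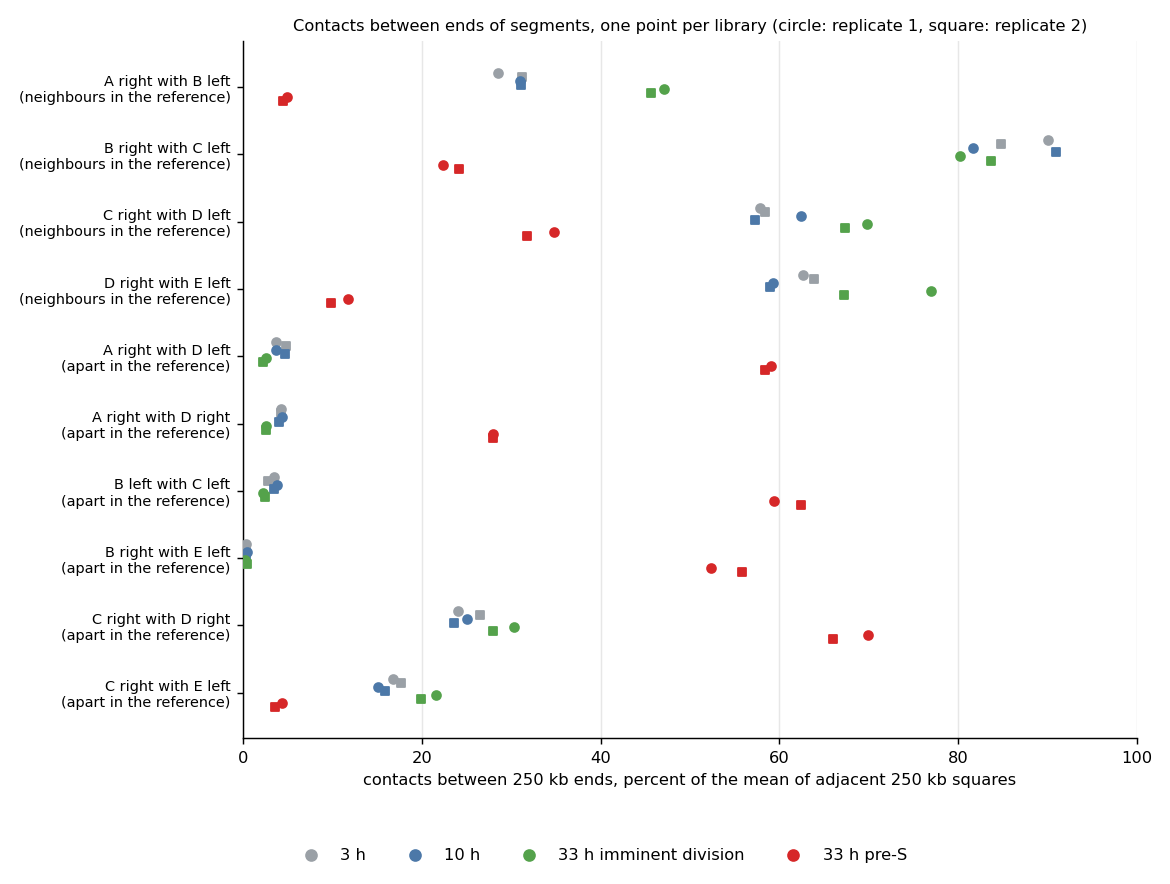
Contacts between 250 kb ends of segments (bins called lost skipped), as percent of the mean of adjacent 250 kb squares, 1 point per library (circles replicate 1, squares replicate 2). For neighbours in the reference the pre-S points lie to the left of all others, and for 4 of the pairs apart in the reference they lie at 52.3% to 69.9%, to the right of all others.

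Orders of segments were compared by how well they fitted the counts of a library. Each candidate mixed the comparison map with a map whose contacts followed distance in the candidate order, with a fitted weight, and the misfit was the Poisson deviance over all bin pairs. The weight is a parameter of this mix and not a share of chromosomes. Bins called lost were taken out of the map before the fit, apart from a lost stretch that made up a segment of its own. With the 6 breaks of the largest size, all 11 lost bins were out, and 6331 orders, orientations and deletions were compared over 53956 bin pairs. The same order came first in both pre-S libraries, with a weight of 0.58: segment A, then 58149984 to 70399925 (C and D together) inverted, then B in reference orientation, then E. It lowered the deviance of the reference order by 33.5% (92058 against 138347) in the first library and by 32.4% (83906 against 124191) in the second. The next order differed only in the orientation of the piece 68899258 to 69099868, and was 0.55% and 0.423% above. With only pairs at least 1 Mb apart this order ranked 5th, behind one that placed 69099865 to 70399925 uninverted to the left of 55100143 to 56350561, the latter inverted. In all 6 comparison libraries the reference order came first, and the next order had a weight of 0.5. The reference order is there the comparison map itself, so this rank was largely fixed in advance and tests nothing.

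Those 6 breaks did not include the edges of the second lost stretch, so D could not move on its own. Breaks ranked instead by the number of kinds of evidence, and then by size, did include them. This ranking was chosen after the data were seen. Over 55945 bin pairs, the best order in both pre-S libraries was A, D in reference orientation, C inverted, B in reference orientation and E, with the second lost stretch, here a segment that could be kept or left out, left out, at a weight of 0.67. The first lost stretch was not in this map. It lowered the deviance of the reference order by 37.2% (97268 against 154899) and 36% (88426 against 138062), and came first under every alternative run for it. The next order, with D inverted, was 2.13% and 1.89% above. The order found with the breaks of the largest size ranked 32 and 29 among these candidates. The 2 sets of breaks scored different bins, so their deviances cannot be set against each other. The 4 pairs of segment ends with the highest levels among those apart in the reference are those that the second order joins: A with the left end of D, the right ends of D and C, the left ends of C and B, and the right end of B with E. The further pairs of ends with raised contacts are not joined in it. The ends were counted in the same pre-S libraries to which the orders were fitted. Segments A to E also follow the breaks of the second order. The match therefore tests neither order. In both orders C was inverted and B was kept in orientation between C and E. Among the comparison libraries the reference order, here too the comparison map itself, came first at 3 h and 10 h. It came second in the imminent division libraries, where the reference with the second lost stretch inverted was at -0.2% and -0.00727% of its deviance.

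The segments differed in features that played no part in choosing them. Segments A, B and C held 5.19, 6.67 and 3.68 protein-coding starts per Mb and had a GC content of 41.3%, 41.1% and 41.7%, while D and E held 0 and 0.625 starts per Mb at 37.7% and 39.4%, and the lost stretches held 0 starts at 38.1% and 37.4%. On the compartment score of chromosome 15 (the leading pattern of its contact map, with positive values on the gene-rich side), C stood at 0.276 to 0.388 in the comparison libraries and had 66.7% of its bins on the positive side. A and B, although denser in gene starts than C, stood lower at -0.33 to -0.0613 and -0.415 to -0.225, with 40.7% and 36.4% of bins on the positive side. D stood at -1.13 to -1.09 and E at -1.19 to -1.18, with 0% of bins on the positive side. The first lost stretch was like them at -1.21 to -1.19, and the second lay between at -0.544 to -0.324.

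The breaks lay near few genes. The first lost stretch lies between Sntb1, the gene of a syntrophin of the dystrophin complex, at 55636388 to 55906949, and Has2, which makes hyaluronan, at 56665627 to 56694539. The first bin of C overlaps Wdyhv1, the gene of an amidase that acts on N-terminal glutamine (58141377 to 58158665), and Fbxo32, the gene of a ubiquitin ligase subunit known from muscle wasting (58175879 to 58214932). The edges of the second lost stretch and the left edge of E lie in a gene desert between Khdrbs3, the gene of an RNA-binding splicing factor (68928420 to 69101211), and Fam135b (71431609 to 71727838). Of the 6 breaks of the largest size, the one at 68899258 is the left border of the bin in which Khdrbs3 starts, and the one at 69099865 lies within the body of that gene. Apart from Wdyhv1, Fbxo32 and Atad2, which lies in the last bin of B, no protein-coding gene body overlaps a bin at these segment edges.

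Gene bins on both sides of the breaks were in contact with other segments than in the comparison libraries. For Has2, in B, segment A took 96 to 419 of the contacts of its bin with the 5 segments in the comparison libraries (12.2% to 19.8%), and 45 and 39 in pre-S cells (2.63% and 2.74%). Segment C took 17.8% to 25.4% and, in pre-S cells, 37.1% and 39.8%. The groups did not overlap in either measure. The bin of Has2 and the bin of Fbxo32, 1520 kb apart in the reference and 259 kb apart where the segments are joined as A, D, inverted C, B and E without the lost stretches, had 12, 14, 14, 13, 16 and 22 contacts between 150 kb squares in the comparison libraries and 233 and 187 in the pre-S libraries, an O/E of 0.226 to 0.411 against 5.07 and 4.65 (17.1 times).

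The bin at the right end of B holds the starts of Wdyhv1 and of its neighbour Atad2, the gene of a bromodomain ATPase of chromatin, which was added after its values were seen. Segment E took 3 to 17 of its contacts in the comparison libraries (0.178% to 0.424%) and 380 and 338 in the pre-S libraries (19.4% and 19.7%), while the share of segment C was 51.6% to 58.3% against 26.5% and 29.3%. Wdyhv1 and Fbxo32 start only 74 kb apart in the reference, 1706 kb with the segments joined in that way, and had 945 to 2160 contacts in the comparison libraries and 392 and 345 in the pre-S libraries (O/E 0.342 times). Contacts of Fbxo32 with B, at 24.4% and 22.9%, overlapped the comparison range of 23.5% to 28.1%, while its contacts with E did not, at 5.39% and 6.08% against 0.297% to 0.795%. Zhx2, the gene of a zinc finger and homeobox repressor further left in B, had 8.14% and 8.68% of its contacts with E (0.134% to 0.511% in the others). Derl1, the gene of a factor that exports misfolded proteins from the endoplasmic reticulum, had 4.85% and 5.42% (0.149% to 0.332%). Zhx2, which starts further from the right end of B than Derl1, had the larger share.

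At the other end of C, Khdrbs3 had more contacts with A and fewer with D and E. Segment A took 29 to 76 of its contacts in the comparison libraries (1.18% to 3.46%) and 349 and 269 in the pre-S libraries (20.3% and 19.5%). Segment D took 11.1% to 14.5% against 5.69% and 5.73%, and E 17% to 19.6% against 5.17% and 5.44%. Khdrbs3 and Sntb1, 13021 kb apart in the reference, had 59 and 45 pre-S contacts against 11 to 16 (5.05 times by O/E), while Khdrbs3 and Fam135b, 2799 kb apart, had 26 and 18 against 39 to 72 (0.466 times). Zfat, the gene of a zinc finger protein of lymphocytes 1441 kb from the nearest break (to the middle of the lost stretch or bin there, as for all such distances), had 7.13% and 8.8% of contacts with A against 2.75% to 3.52%. In E, Fam135b had 10.2% and 10.6% of its contacts with B against 3.31% to 5.68%. The start of Sntb1 and the start of Has2, 788 kb apart in the reference, had 11 contacts in each pre-S library against 22 to 105 (0.29 times).

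Within 2 Mb of a gene's start, contacts with bins of any other segment were counted, so genes in B counted segments on both sides. The share of these contacts was below all comparison libraries in both pre-S libraries for 7 of the 10 named genes within 1 Mb of a break. This count was not set beside genes elsewhere. The share was 19.9% and 21.5% for Wdyhv1 (43.3% to 50.1% in the others), 12.4% and 12.8% for Khdrbs3 (28.4% to 30.6%) and 3.29% and 3.61% for Sntb1 (7.56% to 13.3%). Fbxo32, whose start lies 39.85 kb from the middle of the first bin of C, was 1 of the 3 genes inside the comparison range, at 37.6% in both against 31.9% to 39.5%. For Rnf139, the gene of a ubiquitin ligase of the endoplasmic reticulum 714.2 kb from a break, it was 9.41% and 10.4%, inside the range of 7.26% to 12%, and for Ndufb9, the gene of a subunit of respiratory complex I, 7.45% and 7.71%, inside 6.06% to 9.12%. Trib1, the gene of a pseudokinase, had 97% and 96.6% of its contacts within C against 94.5% to 96.4%.

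Myc lies 3810 kb from the nearest break, inside C, and 0 bins of its 2 Mb window lay across one. Of the contacts of its bin with the 5 segments, 99% and 98.7% were within C in the pre-S libraries, inside or just below the 98.8% to 99.3% of the others. The 500 kb downstream of Myc, which hold Pvt1, had an O/E of 2.82 and 2.6 at 3 h, 2.5 and 2.47 at 10 h, 1.91 and 2.12 in the imminent division libraries, and 2.01 and 2.01 in pre-S cells, so that the 33 h libraries of both kinds were below the earlier ones. The window 1500 to 2000 kb downstream had the highest O/E, 11.2, 9.46, 10.2 and 9.68 at 3 h and 10 h, 7.54 and 8.24 in the imminent division libraries, and 8.15 and 7.06 in pre-S cells. Here too all 33 h libraries were below all earlier libraries, and the kinds of 33 h cells overlapped. The same held from 1000 to 1500 kb, at 4.34 to 5.61 against 6.06 to 7.03, although there the pre-S libraries were below those of imminent division. It did not hold in the other windows up to 3000 kb, where 33 h and earlier libraries overlapped: from 500 to 1000 kb the O/E was 5.01 to 5.98 at 33 h and 5.73 to 6.21 before, from 2000 to 2500 kb 1.88 to 2.24 and 2.15 to 2.64, and from 2500 to 3000 kb 0.508 to 1.07 and 0.378 to 0.963. Over all bin pairs of C within 3 Mb the O/E was also lower at 33 h, at 1.24 to 1.37 against 1.42 to 1.49 before. A fall at 33 h was thus not particular to the windows of Myc. Fam49b, Asap1, Adcy8, Efr3a, Kcnq3, Phf20l1, Tg, Sla, Ndrg1 and St3gal1 also lay in C with 0 bins of their windows across a break.

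**Figure D4:**
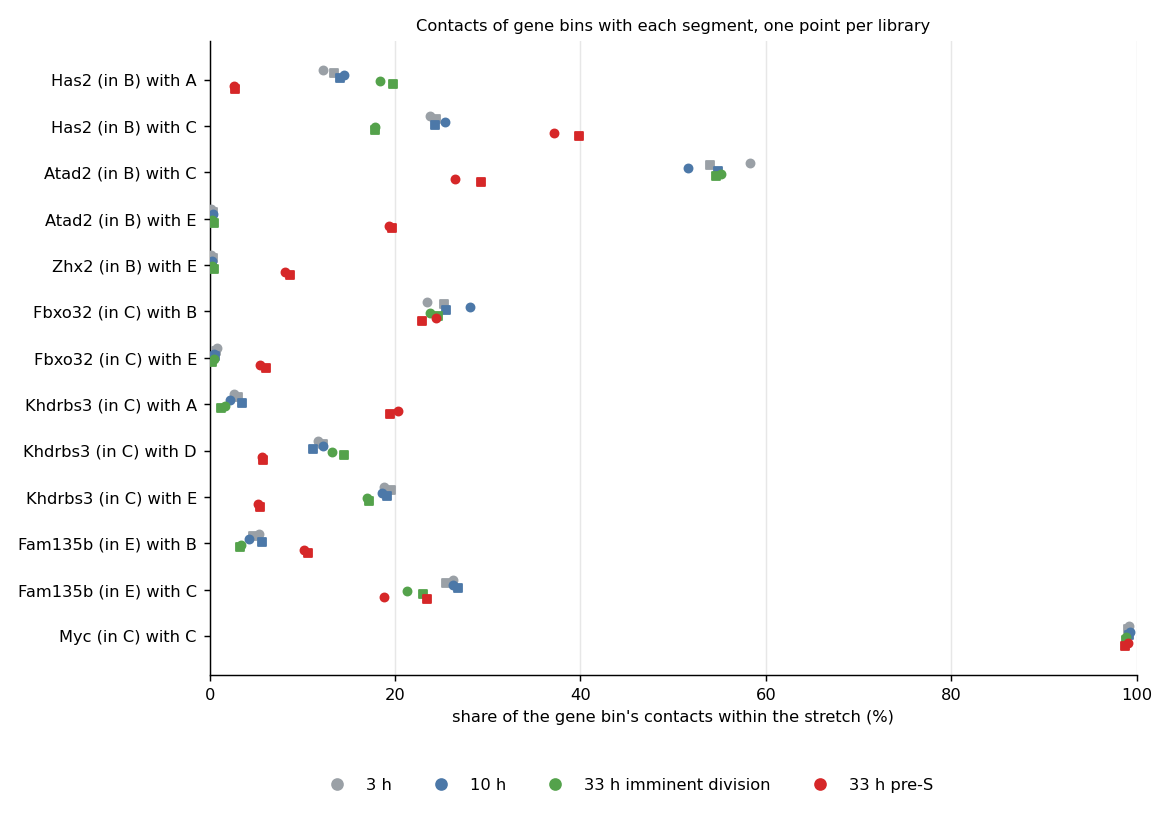
Share of the contacts of a gene's 50 kb bin with the 5 segments that each named segment takes, in percent, 1 point per library (circles replicate 1, squares replicate 2). The pre-S points stand apart for genes near a break, such as Has2 with A at 2.63% and 2.74% and Khdrbs3 with A at 20.3% and 19.5%, and lie among or beside the others for Fbxo32 with B and Myc with C.

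Contacts with other chromosomes were compared between 500 kb blocks of the stretch and 1 Mb windows. Of 39809 pairs of a block and a window with 10 or more pre-S counts, 592 (1.49%) were at least 2 times the comparison mean in both pre-S libraries and above all others. Over all 131 runs of 17 Mb of the autosomes, treated in the same way, the share was 1.05%, and it ranged from 0.544% to 3.02% between runs. Of these runs, 15 were above the stretch, while the other runs of chromosome 15 were below it, at 0.579% to 0.908%. The called pair with the most pre-S counts was the block 69 to 69.5 Mb with 40 to 41 Mb of chromosome 16, with 22 and 15 pre-S counts and ratios to the product of coverages of 4.47 and 3.13 against 0.889 to 2.01. With the second pre-S library left out, 899 pairs were called.

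Differential interactions (DIs) were then tested in contrasts that the choice of the stretch had not used, with edgeR's quasi-likelihood test over all 1458351 autosomal bin pairs that passed the filter on low counts, 12070 of them in the stretch. From 3 h to 10 h, 0 of the 12070 pairs passed at an adjusted p of 0.05 by edgeR, against 0.000617% of all pairs (9 pairs), while 850 (7.04%) had an unadjusted p under 0.05, against 5.93% of all pairs. DESeq2 called 0 (0% of all pairs), with 166 (1.38%) under 0.05 against 1.06%. The pair with the smallest p joined the bin at 57600063 to the bin at 57799950 within Zhx2, and it missed the threshold. It had 116 and 239 contacts at 3 h and 101 and 139 at 10 h, a log2 fold change of -0.67 with an adjusted p of 0.0563 by edgeR's quasi-likelihood test. With TMM normalization in place of the loess offsets, or without either imminent division library, 1 pair of the stretch was called, and with bin coverage in the offsets 2 were. The next, the bin at 61400512 with the bin of Myc, had a log2 fold change of -0.53 and an adjusted p of 0.218. On the higher side the first was the bin of Efr3a and Oc90 with that of Kcnq3, a potassium channel gene, at 1.44 and an adjusted p of 0.399.

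From 10 h to imminent division, 284 of the 12070 pairs passed (2.35%), 73 higher and 211 lower, against 2.01% of all pairs (0.691% higher and 1.32% lower). In this fit the share in the stretch was near that of the genome. It was further above it by DESeq2, at 0.779% against 0.549%, and with a 2-fold abundance filter, at 0.322% against 0.158%. The pairs with the smallest p on the lower side ended in segment B beside Zhx2 and reached over the left edge of C. The bin at 57600063 with the bin of Fbxo32 had 35 and 34 contacts at 3 h, 46 and 59 at 10 h, 28 and 38 in the imminent division libraries and 8 and 9 in pre-S cells, a log2 fold change from 10 h to imminent division of -1.53 (adjusted p 2.59e-06, edgeR's quasi-likelihood test). The same bin with the bin at 58350064 fell by 1.38 on the log2 scale (adjusted p 5.25e-06, edgeR). The bin at 57500095 with that of Fam91a1, the gene of a vesicle trafficking protein of the Golgi, fell by 2.41 (adjusted p 1.05e-05, edgeR), from 18 and 29 contacts to 3 and 13 in the deeper imminent division libraries, with 30 and 35 in pre-S cells.

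On the higher side, the bin of Sntb1 at 55749896 and the bin at 57549846, on either side of the first lost stretch, had 4 and 5 contacts at 10 h but 23 and 46 in the imminent division libraries, a log2 fold change of 2.47 (adjusted p 6.37e-05, edgeR's quasi-likelihood test). Fam91a1 with its neighbour Fer1l6, a ferlin gene, had 73 and 91 contacts at 10 h but 193 and 260 later, a log2 fold change of 0.78 (adjusted p 9.69e-05, edgeR). Khdrbs3 with the bin at 69499998, the last bin of C, had 4 and 11 contacts at 10 h but 47 and 58 later, a log2 fold change of 1.91 (adjusted p 0.000164, edgeR). In each of these 3 pairs both imminent division libraries were above both 10 h libraries after normalization for depth. DESeq2 called only 1 pair of the stretch higher, so at most 1 of the 73 higher calls was shared with it.

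By segments, 21 of the 319 pairs of A with B were higher at imminent division and 0 lower (6.58%, median log2 fold change 0.57). Of the 598 pairs of B with C, 47 were lower and 0 higher (7.86%, median -0.50). Over all pairs 2.01% were called, 0.691% higher and 1.32% lower. Within C, 34 of 8602 pairs were higher and 148 lower (2.12%, median -0.08), near the share of all pairs. Within B 9 of 335 were higher and 8 lower (5.07%). Pairs of C with E had 2 higher and 1 lower of 450 (0.667%), and of the 245 pairs of C with D none was called. The bins in most called pairs lay beside Zhx2, 57549846 with 14 of 84 tested (5 higher), 57600063 with 14 of 77 (4 higher) and 57500095 with 11 of 105 (3 higher), and in the body of Pvt1, 62200123 with 12 of 81 and 62049388 with 11 of 88, where all were lower. By distance, 34 of 3303 pairs were higher and 44 lower under 0.5 Mb, and 9 and 82 of 2626 at 0.5 to 1 Mb. At 1 to 2 Mb they were 27 and 57 of 2819, and beyond that 3 and 28 of 3322. Shares over all pairs were not computed by distance, and the bins with most calls were not set beside bins elsewhere. The count depended on the libraries: 73 pairs passed without the first 10 h library, 27 without the second, 92 without the first imminent division library and 157 without the second, whose sex chromosome shares stood apart. The shares over all pairs fell alike, to 0.527%, 0.192%, 0.68% and 1.01%, against 0.605%, 0.224%, 0.762% and 1.3% in the stretch. DESeq2 called 94 pairs, 1 higher and 93 lower (28 of them among the 284), against 0.549% of all pairs (0.0103% higher and 0.538% lower), and TMM normalization gave 635 (5.26%), 122 higher and 513 lower, against 3.87% of all pairs.

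Levels over whole segment pairs rest on the same counts as these calls, so they describe them and are no separate evidence. Over bin pairs within 3 Mb, the O/E of A with B was 0.818 ± 0.00353 (SD, n = 2) at 3 h, 0.861 ± 0.0182 at 10 h and 1.17 ± 0.00577 in the imminent division group. It was 0.272 ± 0.00111 in pre-S cells. The O/E of B with C was 1.07 ± 0.0815 at 3 h, 0.993 ± 0.0177 at 10 h, 0.724 ± 0.0287 in the imminent division group and 0.829 ± 0.00225 in pre-S cells. By this measure imminent division was thus the highest group for A with B and the lowest for B with C, while pre-S was the lowest for A with B. The pre-S level of B with C also counts the raised contacts between the left ends of B and C (O/E 5.55 and 5.64). It is therefore no measure of contact across the left edge of C. The cross-edge ratio there was lowest in the pre-S libraries, at 0.347 and 0.349 against 0.867 to 1.08. For D with E the group means were 0.747, 0.709, 0.856 and 0.217 in the same order, and for C with E 1.57, 1.48, 1.7 and 0.639. Within A, B and E the 4 groups lay close together, A at 1.16, 1.16, 1.11 and 1.13, B at 0.966, 0.922, 0.915 and 0.951, and E at 0.715, 0.698, 0.727 and 0.766. Segment D, the shortest, stood at 0.603, 0.575, 0.691 and 0.683, higher in both 33 h groups than before. Within C the means were 1.48, 1.43, 1.33 and 1.26, lower in both 33 h groups than before.

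**Figure D5:**
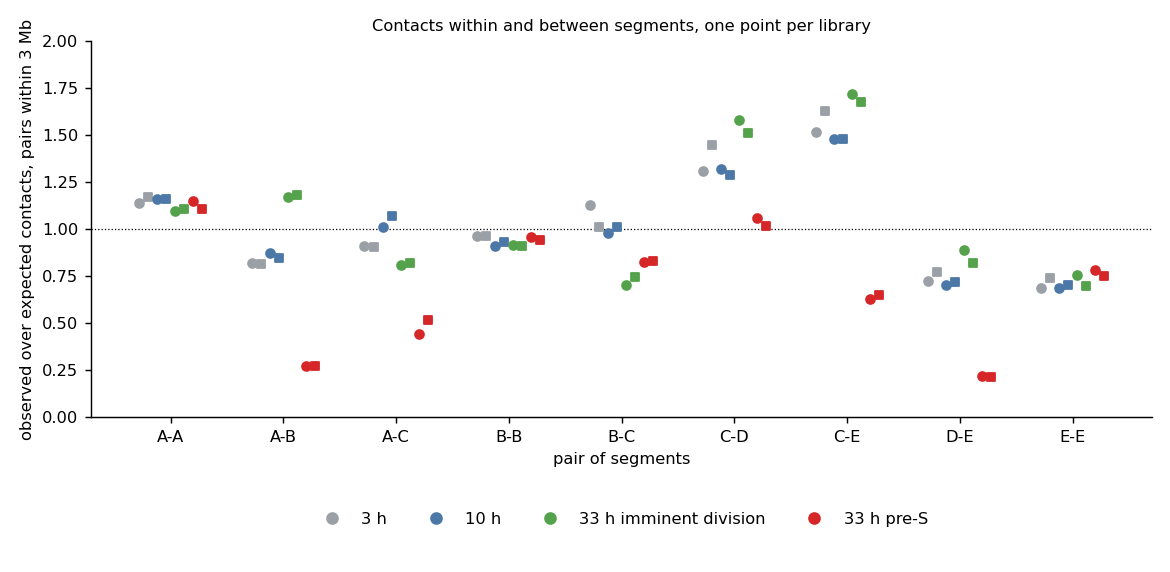
Observed over expected contacts of bin pairs within 3 Mb, within and between segments, 1 point per library (circles replicate 1, squares replicate 2). For A with B, D with E and C with E the pre-S points lie below all others, at group means of 0.272, 0.217 and 0.639, and within A, B and E all 8 points lie close together.

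Contrasts with the pre-S group, which the choice of the stretch used, are given only as counts of calls, and nothing is read from their excess over all pairs. Against 10 h, edgeR called 748 of the 12070 pairs (6.2%, 134 higher and 614 lower), against 0.594% of all pairs (0.339% higher and 0.255% lower), and DESeq2 called 153 against 0.0403%. The split by direction over all pairs turned with the scaling: 42.9% of calls were lower with loess offsets, 70.3% with TMM, 64.6% with bin coverage in the offsets and 96.3% by DESeq2, against 82.1%, 84.7%, 69% and 95.4% in the stretch. They included all 22 tested pairs of A with D and 27 of the 30 of B with E, all higher, and 71 of the 205 of D with E and 66 of the 319 of A with B, all lower. Within segments, 1 pair of 342 was higher in A, 9 of 335 were higher and 7 lower in B, 1 of 55 was higher in D, 5 of 8602 were higher and 56 lower in C, and 10 of 472 were higher and 1 lower in E. Against pre-S, imminent division cells had 950 called pairs (7.87%, 809 higher and 141 lower), against 0.36% of all (0.146% higher and 0.214% lower), and DESeq2 called 216 against 0.0151%. Here 59.5%, 57.9%, 54.6% and 31.4% of calls over all pairs were lower, in the same order of scalings, and 14.8%, 17.3%, 28.4% and 30.1% in the stretch. The filter on low counts used all 8 libraries, so pairs of distant segments could pass it through their pre-S counts alone.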

How the data were processed

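In situ Hi-C was measured in 8 libraries, 2 for each of 4 groups. The deposited matrices hold raw counts of read pairs per pair of 50 kb bins. The authors had aligned the reads to mm10 with the diffHic pipeline, which uses cutadapt and bowtie2, and had removed duplicates, dangling ends and long fragments. Bin coordinates were rebuilt from the midpoints of MboI fragments of GRCm38 and checked by the drop of counts at chromosome ends, and genes were those of GENCODE vM21. Autosomal bins with much undetermined sequence or extreme coverage (762) were left out, which removed none of the stretch. Counts over distance means, copy ratios and cross-edge ratios were computed from the deposited counts in Python 3.11.15 with numpy 2.4.6. Orders of segments were compared by Poisson deviance. DIs were called with edgeR 4.0.16 (R 4.3.3, limma 3.58.1): a one-way layout over 4 groups, loess offsets fitted separately under 1.5 Mb, an abundance at least 4 times the interchromosomal background, a summed count of at least 10, and Benjamini-Hochberg adjustment at 0.05 over all pairs. DESeq2 1.42.0 was an alternative. Replicate numbers did not pair the libraries (correlations of deviations -0.0336 to 0.00865). The scripts were tested on simulated data. Genes were named where they overlapped or flanked a break, from a fixed list, or at the 3 DIs with the smallest p in each direction. The stretch, its thresholds and its gene lists were chosen with earlier results of these data known. P-values set a difference against a spread between replicates that was estimated jointly over all 4 groups, pre-S included, and moderated across bin pairs. Each group had 2 biological replicates, and counts without molecular identifiers are not independent molecules.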

Additional observations from a re-analysis of the deposited data

How the results depend on the processing

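Of 195 alternative values computed, 131 stayed within the tolerance set for each, 64 moved and 0 were recorded as reversed. For the DIs only the number of calls was compared with the main fit, so a change of direction could not be recorded there. In the comparison of pre-S with the other libraries, the lost stretches, the new contacts and the lost short-range contacts were found under each alternative run, with other sizes. With only the imminent division libraries as comparison, contacts were 19.4 times higher for A right with D left and 139 times for B right with E left, and cross-edge ratios were 0.0796, 0.393 and 0.147 (first lost stretch, left edges of C and E). Distance means of chromosome 15 gave 13.6 and 149 times, and division by copy ratios 134 times for the second of these. A threshold of 2 times called 1831 new pairs. Windows of 250 kb gave cross-edge ratios of 0.0461 and 0.257 at the first lost stretch and the left edge of C. Windows of 1 Mb called 71 edges, with ratios of 0.169, 0.587 and 0.206. Bins of 100 kb gave 5 lost bins, as there are fewer bins, and copy ratios of 0.287 and 0.0371. For contacts within 2 Mb of a gene's start, the mean share with bins of other segments was 14.3% in pre-S cells over named genes near a break. For contacts within 1 Mb it was 6.78%. A threshold of 1.5 times called 1887 interchromosomal pairs. The order that came first with the breaks of the largest size ranked 5 with only pairs at least 1 Mb apart and 32 with the breaks ranked by kinds of evidence, a ranking added after the data were seen.

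Leaving out each library in turn gave 10 to 13 lost bins, 345 to 1240 new pairs (345 and 534 without either pre-S library), 16.4 to 17.7 and 165 to 198 times the comparison contacts at the ends of A with D and B with E, 45 to 50 lost edges with ratios of 0.0935 to 0.101, 0.339 to 0.354 and 0.162 to 0.172, and 617 to 899 interchromosomal pairs. It gave 0 to 1 DIs between 3 h and 10 h, 27 to 326 between 10 h and imminent division, 284 to 797 between 10 h and pre-S, and 395 to 1007 between the 33 h groups. Over all pairs the shares were 6.86e-05% to 0.00165%, 0.192% to 2.34%, 0.0531% to 0.72% and 0.0485% to 0.464% in the same order. In the stretch the last 3 contrasts had 0.224% to 2.7%, 2.35% to 6.6% and 3.27% to 8.34%. The counts without a library were lowest for those in the contrast: 284 and 371 without either pre-S library and 447 and 407 without either 10 h library for 10 h with pre-S, and 395 and 505 without either pre-S library for the 33 h groups. The order that came first stayed first in each of these runs.

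DESeq2 called 94, 153 and 216 pairs in the last 3 contrasts. TMM called 1 between 3 h and 10 h and 635 between 10 h and imminent division. Bin coverage in the offsets called 2 between 3 h and 10 h (0.0166% against 0.0159% of all pairs) and 603 between 10 h and imminent division (5% against 3.79%). It called 436 between 10 h and pre-S (3.61% against 0.6%). A 2-fold abundance filter, which tested more pairs, called 100 between 10 h and imminent division (0.322% against 0.158%), 96 of them among the 284. The cause was not tested for the other shifts. With the replicate number as a block, which the correlations gave no ground for, 253 pairs were called between 10 h and imminent division, and 269 without the pre-S libraries, an alternative added later. Depth limits the calls of single pairs, since a new pair needed 10 pre-S counts and many distant pairs had 0 in comparison libraries.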
